A study of Mus musculus with 24 samples.

Results

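The Sox6 locus is the Sox6 gene body on mouse chromosome 7 with 100 kb on each side, in open-chromatin maps of hindlimb muscle. The gene body is chr7:115470872-116040776 on mm10 (569905 bp, RefSeq gene 20679) and lies on the minus strand, so transcription runs from its right end to its left end. Peaks of all 24 libraries were merged into regions, and a region was kept when at least 2 libraries called it. The locus held 160 of the 459616 regions kept across the genome: 106 overlapped the gene body, 35 lay in the left flank past the 3′ end and 19 lay in the right flank before the 5′ end. A further 182 merged regions of the locus were called in 1 library and left out (136 adult and 46 E18.5 calls, median width 291 bp). Just inside that limit were 61 regions called in 2 libraries, with 84 adult and 38 E18.5 calls and a median width of 463 bp.

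ATAC-seq, in which the Tn5 transposase cuts accessible DNA, had been run on nuclei from 4 hindlimb muscles of male FVB/NJ mice. The adult groups were soleus and vastus intermedius, which the study calls slow-biased, and gastrocnemius and vastus lateralis, which it calls fast-biased, each from the same 3 mice. The E18.5 groups were the same 4 muscles at E18.5, shortly before birth, each from the same 3 litters, with muscles of up to 5 male embryos of a litter pooled. The adult age is given as P56 in one place and as 3 to 4 months in another, and was not settled here. All 4 muscles of a replicate number came from the same adult animal or litter. The tissue was undigested, so nuclei of every cell type in the muscle could contribute, and a difference in the share of a cell type cannot be told apart from a difference within its nuclei. The dates in the file names differ between all adult and all E18.5 libraries, so date and stage cannot be told apart.

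Each list gives positions of peaks and nothing else, so the measure here is a call, yes or no, per region and library. A region without a call is not thereby shown to be closed. Read depth is unknown, and the length of a list, 115333 to 228137 peaks, is the only measure of it. Adult slow-biased lists averaged 153684 peaks and adult fast-biased lists 179502, against 166792 in E18.5 slow-biased and 168920 in E18.5 fast-biased lists. All 6 skeletal muscle marker genes (Ckm, Acta1, Ttn, Myod1, Des and Mb) had called regions in each of the 24 libraries. 

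Sox6 encodes a transcription factor of the SoxD family. SoxD proteins bind DNA through an HMG box, carry no activation domain of their own and act with partner proteins. In mouse and zebrafish skeletal muscle Sox6 represses genes of the slow fibre program, and it is needed for fetal fibres to take on a fast identity. Outside muscle, Sox6 acts with Sox5 and Sox9 in cartilage, and in red cell precursors it represses embryonic globin genes. Its 3′ UTR is a known target of miR-499, a microRNA made from an intron of the slow myosin gene Myh7b.

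RefSeq gives 6 promoter windows of Sox6 (250 bases before to 50 after a start), and the right end of the gene body adds a further start, here called start 1. Starts 2 to 7 follow in the direction of transcription. The windows of 4 starts are shown: start 3 lay under a peak in 19 of 24 libraries, start 2 in 1, start 6 in 1 adult and 3 E18.5 libraries, and start 7 is the start nearest to a region called in adult fast-biased muscles alone. The letters come from the RefSeq table of GRCm38.p6, the assembly of mm10, made from C57BL/6J and not from FVB/NJ DNA. They run 5′ to 3′ on the minus strand. Capitals mark E-boxes (CANNTG, the core bound by myogenic factors such as MyoD), GC boxes (GGGCGG or its reverse complement CCGCCC), Sox sites (AACAAT or ATTGTT) and TATA boxes (TATAAA or TTTATA).
Sox6 start 2, chr7:116038695-116038994: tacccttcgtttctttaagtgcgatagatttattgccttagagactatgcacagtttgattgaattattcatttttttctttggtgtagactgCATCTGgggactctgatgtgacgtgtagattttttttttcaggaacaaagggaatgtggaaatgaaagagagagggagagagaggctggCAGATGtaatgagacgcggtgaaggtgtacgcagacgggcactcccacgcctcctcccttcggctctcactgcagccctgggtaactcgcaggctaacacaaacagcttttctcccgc
Sox6 start 3, chr7:116030998-116031297: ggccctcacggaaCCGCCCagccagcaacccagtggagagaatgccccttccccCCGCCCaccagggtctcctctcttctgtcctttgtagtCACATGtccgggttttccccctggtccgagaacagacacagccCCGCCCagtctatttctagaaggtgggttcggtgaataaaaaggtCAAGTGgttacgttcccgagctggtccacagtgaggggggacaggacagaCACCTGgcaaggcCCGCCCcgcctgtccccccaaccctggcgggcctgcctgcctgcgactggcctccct
Sox6 start 6, chr7:115824661-115824960: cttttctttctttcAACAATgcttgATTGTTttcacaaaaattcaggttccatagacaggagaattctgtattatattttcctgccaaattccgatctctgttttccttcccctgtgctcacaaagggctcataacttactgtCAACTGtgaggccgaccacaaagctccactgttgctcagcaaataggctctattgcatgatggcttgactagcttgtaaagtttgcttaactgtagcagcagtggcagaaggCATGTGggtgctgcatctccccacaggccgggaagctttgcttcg
Sox6 start 7, chr7:115801560-115801859: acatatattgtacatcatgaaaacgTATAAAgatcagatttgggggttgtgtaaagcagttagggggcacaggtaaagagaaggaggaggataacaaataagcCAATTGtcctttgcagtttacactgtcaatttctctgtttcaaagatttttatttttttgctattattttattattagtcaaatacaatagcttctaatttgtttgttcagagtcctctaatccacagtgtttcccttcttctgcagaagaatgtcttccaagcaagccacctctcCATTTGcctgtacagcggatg

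The window of start 3 was the richest in G and C, at 63.3%, and held 4 GC boxes and 3 E-boxes. Start 2 had 47.0% G and C, 2 E-boxes and 0 GC boxes. Start 6 had 45% G and C, with 2 Sox sites on opposite strands near the far end of the window and 2 E-boxes. Start 7 had 36.7% G and C, 2 E-boxes and 1 TATA box. No motif overlapped another kind of motif in these windows. Of 32817 RefSeq promoter windows of the mouse, 72.3% held an E-box, 35.6% a GC box, 10.7% a Sox site and 13.6% a TATA box. The matches describe letters only.

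Both start regions at the 5′ end were called in every library of both stages. Region chr7:116038614-116041162 spans starts 1 and 2, and region chr7:116030053-116034854 spans start 3 and the antisense lncRNA gene Sox6os. Within the first of them, the exact base of start 1 lay under a peak in 4 of 12 adult libraries and 8 of 12 E18.5 libraries, and start 2 under a peak in 0 adult libraries and 1 E18.5 library, and the peaks lay mostly between these starts. The peaks there covered 741 to 1690 bp in adult libraries (median 1282 bp) and 1192 to 1984 bp in E18.5 libraries (median 1476 bp). Averaged by animal, the covered length was 1227 ± 170 bp in adults and 1491 ± 160 bp in E18.5 litters (SD, n = 3 each), with no overlap between animals and litters. Peaks of regions called in all 24 libraries were generally wider at E18.5: over 18301 such regions the median was 1030 bp in adults and 1173 bp at E18.5, and 22.9% were wider in adults. How many of them separate animals from litters was not computed.

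Start 3 was the start with the most adult calls. A peak lay over its exact base in 12 of 12 adult libraries and in 7 of 12 E18.5 libraries, of which 2 were soleus, 1 vastus intermedius, 2 gastrocnemius and 2 vastus lateralis. Counting a peak anywhere in the promoter window of start 3, the numbers were 12 adult and 10 E18.5 libraries. At 1 kb upstream of start 3 a peak was present in 12 of 12 adult libraries and 12 of 12 E18.5 libraries. At 3 kb upstream, a peak was present in 10 of 12 adult libraries and 11 of 12 E18.5 libraries, and the missing adult calls were both in soleus (1 of 3 libraries). Over the whole region the covered length was 3151 ± 283 bp in adults and 2846 ± 347 bp at E18.5 (SD, n = 3 each), and animals and litters overlapped.

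**Figure D1:**
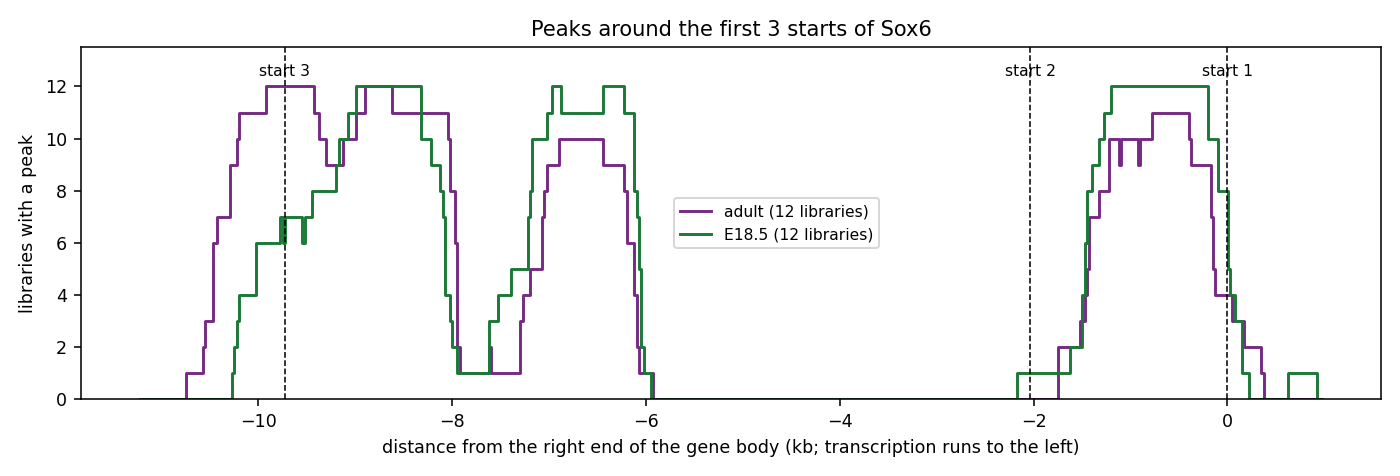
Number of libraries with a peak at each position around starts 1, 2 and 3 of Sox6, for 12 adult and 12 E18.5 libraries; the x axis is the distance in kb from the right end of the gene body. Adult peaks reach over the exact base of start 3 in 12 of 12 libraries and E18.5 peaks in 7 of 12, while 1 kb upstream both stages are at 12. A peak anywhere in the promoter window of start 3 was present in 12 adult and 10 E18.5 libraries.

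The inner starts were seldom under a peak. Start 6 (chr7, position 115824710) lay under a peak in 1 of 12 adult libraries and 3 of 12 E18.5 libraries, and region chr7:115824454-115826143 around it was called in 4 of 12 adult libraries, of which 3 were vastus lateralis and 1 vastus intermedius, and in 10 of 12 E18.5 libraries. Fisher's exact test on these calls gave p = 0.0361 and, adjusted, p = 0.197. Start 4 had no peak in any library and its nearest region was 7368 bp away. Starts 5 and 7 each lay under a peak in 1 adult vastus lateralis library and in 0 of 12 E18.5 libraries.

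Adult vastus lateralis had the most called regions in the Sox6 locus of all 8 groups. The counts were 59, 65 and 58 in adult vastus lateralis, 50, 48 and 51 in adult gastrocnemius, 38, 40 and 44 in adult vastus intermedius and 34, 46 and 41 in adult soleus (replicates 1, 2 and 3). At E18.5 they were 41, 21 and 38 in vastus lateralis, 46, 39 and 23 in gastrocnemius, 48, 33 and 24 in vastus intermedius and 37, 45 and 26 in soleus. The group means in falling order were 60.7 ± 3.79 in adult vastus lateralis, 49.7 ± 1.53 in adult gastrocnemius, 40.7 ± 3.06 in adult vastus intermedius and 40.3 ± 6.03 in adult soleus, then 36.0 ± 11.8, 36.0 ± 9.54, 35 ± 12.1 and 33.3 ± 10.8 in E18.5 gastrocnemius, soleus, vastus intermedius and vastus lateralis (SD, n = 3 each). The ranges of adult vastus lateralis, adult gastrocnemius and adult vastus intermedius did not overlap in this order, whereas adult vastus intermedius and adult soleus, and the E18.5 groups among themselves, did. This order holds for counts alone: per 100000 called regions, adult vastus lateralis averaged 43.3 ± 3.75, adult vastus intermedius 38.8 ± 4.08, adult gastrocnemius 37.6 ± 4.88 and adult soleus 31.2 ± 2.12 (SD, n = 3 each), so that vastus intermedius and gastrocnemius changed places and all neighbouring ranges overlapped.

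**Figure D2:**
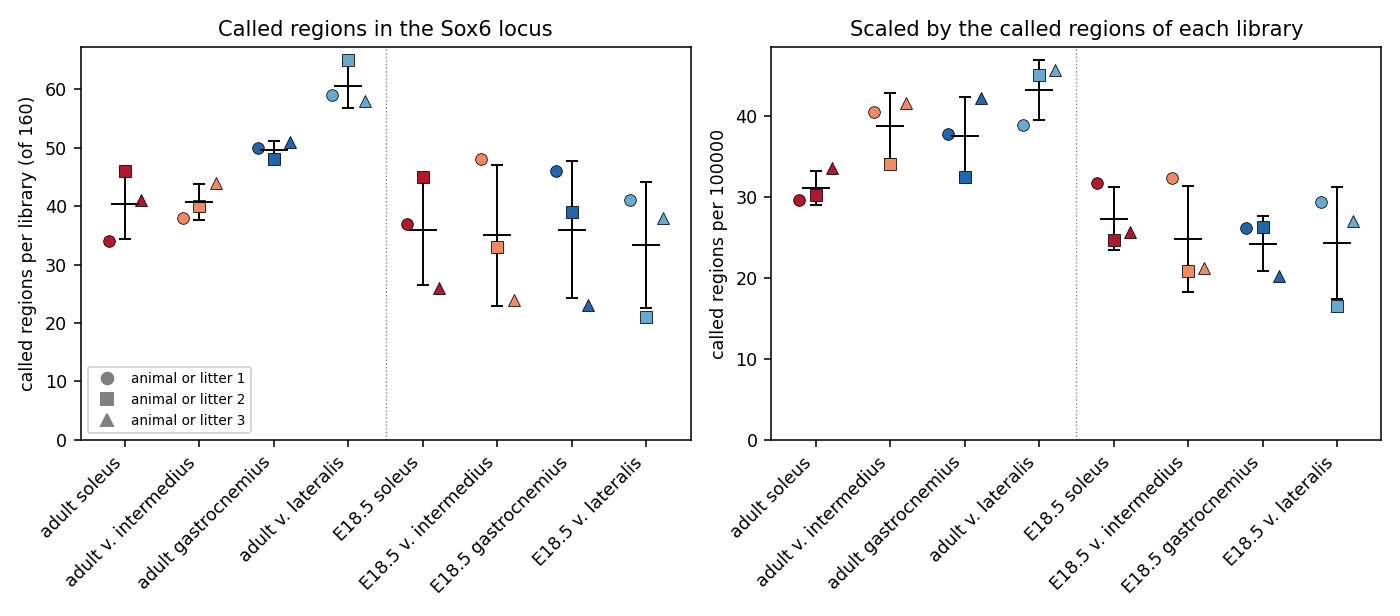
Called regions of the Sox6 locus per library (left, of 160) and per 100000 called regions of the library (right) in the 8 groups; points are libraries, shaped by animal or litter, bars are the mean and SD of 3. The 3 adult vastus lateralis libraries sit at 58 to 65, above every other library, and on the scaled axis adult slow-biased and fast-biased libraries overlap.

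Every adult had more called regions in the Sox6 locus than any E18.5 litter, and the surplus lay in the gene body; with 3 against 3 the difference could not pass the test. Averaged over the 4 muscles, the counts were 45.25, 49.75 and 48.5 in the 3 adults and 43, 34.5 and 27.75 in the 3 litters, with no overlap. The means were 47.8 ± 2.32 in adults and 35.1 ± 7.64 at E18.5 (SD, n = 3 each), a difference of 12.75 with an exact two-sided permutation p of 0.1, the smallest that 3 against 3 allows, and an adjusted p of 0.537 over 34335 gene loci. Of those loci, 4.64% had every adult above every litter and 14% had every adult below. Per 100000 called regions of the library, the values were 36.7, 35.5 and 40.8 in adults and 30.0, 22.1 and 23.6 in litters, again with no overlap. With the same number of peaks drawn from each list the difference was 8.75, and with only the first peaks of each file it was 6.08. With regions called in at least 3 libraries it was 8.92 (exact permutation p = 0.2), and adults and litters were no longer fully separated. In the length of the locus covered by peaks they also overlapped, at 28.8 kb in adult 2 and 28.9 kb in litter 1.

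In the gene body alone, adults had 30.75, 34 and 31.75 called regions and litters 23.5, 17.25 and 15.75, which gives 32.2 ± 1.66 in adults and 18.8 ± 4.11 at E18.5 (SD, n = 3 each). The flanks held 15.7 ± 1.13 called regions in adults and 16.2 ± 3.85 at E18.5, and adults and litters overlapped. In the right flank, which holds 1110004F10Rik, 1700003G18Rik and the end of Plekha7, adults had 6.25 ± 0.901 and litters 8.33 ± 1.66, with overlap. The average region of the gene body was called by 30.3% of adult and 17.8% of E18.5 libraries, against 27.7% and 30.2% over all kept regions of the genome. No E18.5 library called 43 of the 106 gene body regions (40.6%), against 14.9% of all kept regions, and no adult library called 5 (4.72%), against 10.3%. Of the gene body regions, 19 (17.9%) were called in adult fast-biased libraries alone and 2 (1.89%) in adult slow-biased libraries alone, where all kept regions gave 3.09% and 2.42%. Regions called in just 2 libraries made up 41.5% of gene body regions and 30.3% of all kept regions. A region called in 1 set of libraries alone passed the 2-library limit through that set, so these shares describe calls only.

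Of windows of 50 kb, those at the 3′ end had the largest adult surplus. In the first 50 kb from the left end of the gene body, adults had 5.58 ± 0.764 called regions per library and litters 1.67 ± 0.289, and in the next 50 kb they had 5.42 ± 1.38 and 1.83 ± 0.804 (SD, n = 3 each). Every adult was also above every litter between 250 and 300 kb (3.67 ± 0.629 in adults, 1.92 ± 0.382 at E18.5) and between 400 and 450 kb from the left end. From 600 to 650 kb, in the right flank, every adult was below every litter, at 2.75 ± 0.661 in adults and 4.08 ± 0.289 at E18.5. The windows are a description without a test, and how often windows elsewhere in the genome separate adults from litters was not computed.

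**Figure D3:**
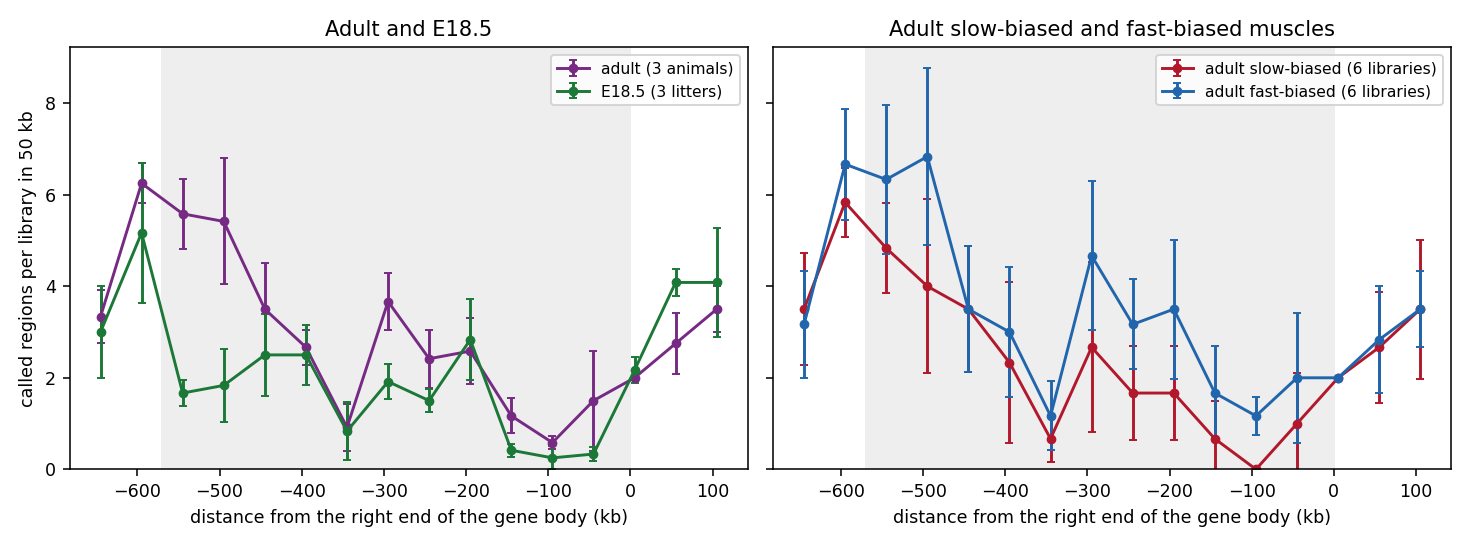
Mean called regions per library in windows of 50 kb along the locus, with SD, for adult animals and E18.5 litters (left) and for adult slow-biased and fast-biased libraries (right); the grey band is the gene body, the x axis is the distance in kb from its right end, and the right-most window holds only the end of the flank. Adults exceed E18.5 at the left end of the gene body, at 5.58 against 1.67, and adult fast-biased libraries have higher means than adult slow-biased ones in most gene body windows.

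Of the 160 regions, 62 had enough calls for Fisher's exact test (two-sided, 12 adult against 12 E18.5 libraries, adjusted by Benjamini-Hochberg over 170267 regions of the genome). Of these, 3 were called more often in adults, where 1.55% of regions tested genome-wide were, and 0 were called more often at E18.5, where 4.55% were. At an unadjusted p under 0.05 the counts were 12 and 3, against 5.31% and 14.3% genome-wide. These p-values are too small, since the 12 libraries of a stage come from 3 animals or litters. All 3 regions lay inside the gene body within 100 kb of its 3′ end.

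Region chr7:115511072-115512284, 529 kb from the right end and inside the lncRNA gene Gm51455, was called in 12 of 12 adult libraries and 1 of 12 E18.5 libraries (Fisher's exact test, adjusted p = 0.00113). The covered length there was 302 to 1149 bp in adult libraries (median 857 bp), and 210 bp in the 1 E18.5 library with a call, vastus lateralis of litter 1. Region chr7:115472436-115473721, 568 kb from the right end, was called in 12 of 12 adult libraries and 2 of 12 E18.5 libraries (Fisher's exact test, adjusted p = 0.00415). It had 348 to 1231 bp under peaks in adults (median 962 bp), lowest in soleus of adult 3, and 229 and 522 bp in the E18.5 libraries with a call. Region chr7:115545385-115546521, 495 kb from the right end, was called in 10 of 12 adult libraries and 0 of 12 E18.5 libraries (Fisher's exact test, adjusted p = 0.00415). The adult libraries without a call there were soleus of adults 2 and 3, and the others had 223 to 1137 bp under peaks. With the same number of peaks drawn from each list, none of the 3 passed the threshold (adjusted p 0.119 to 0.194).

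Regions chr7:115476805-115478527 and chr7:115509176-115510664, in the same stretch of the gene, were each called in 12 of 12 adult libraries and 5 of 12 E18.5 libraries and missed the threshold (Fisher's exact test, adjusted p = 0.0566). In the other direction, region chr7:115446377-115447600 in the left flank was called in 3 of 12 adult libraries and 9 of 12 E18.5 libraries (adjusted p = 0.199, Fisher's exact test). It covered 212 to 261 bp in the adult libraries with a call and 237 to 1044 bp in the E18.5 libraries with a call. Region chr7:115669092-115671905 was called in 5 adult and 10 E18.5 libraries, and regions chr7:115833393-115834408 and chr7:116107782-116109214 each in 2 adult and 7 E18.5 libraries. Fisher's exact test gave each of these an adjusted p of 0.377.

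**Figure D4:**
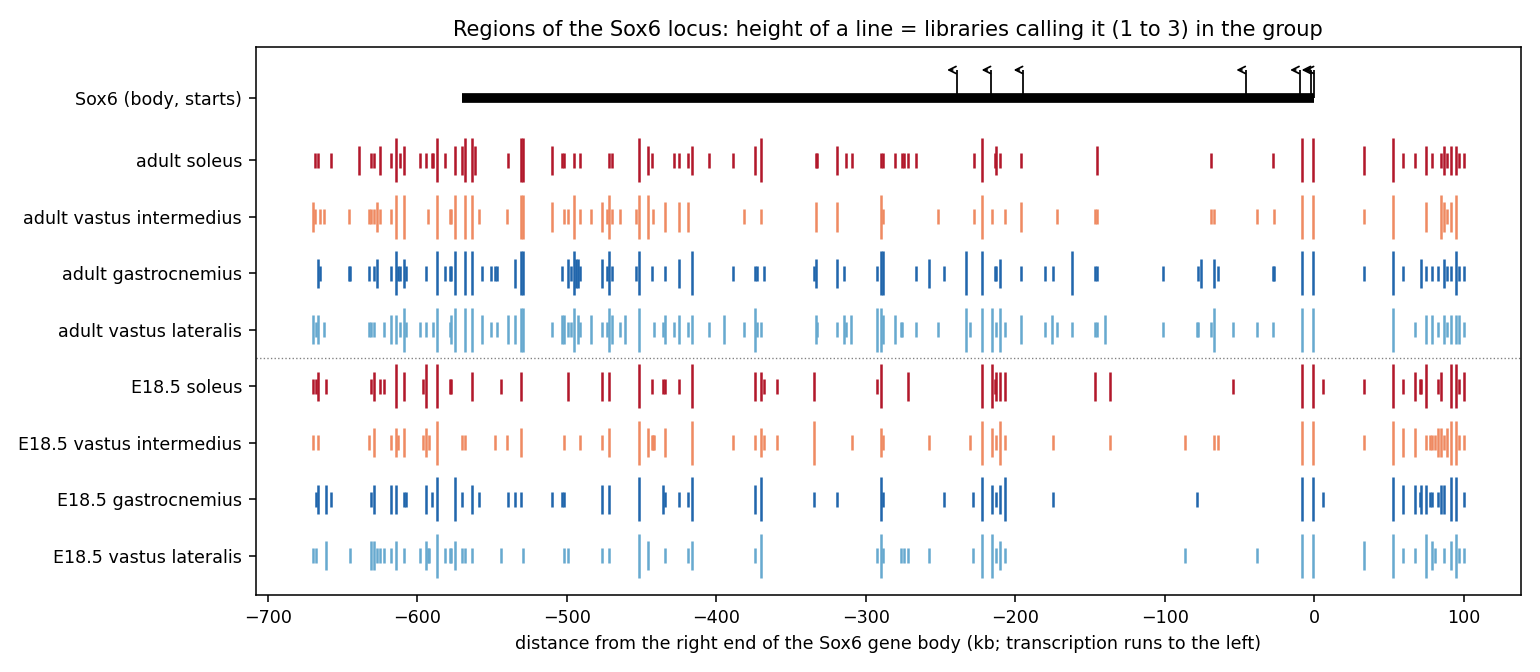
Map of the Sox6 locus with a row for each of the 8 groups, adult above E18.5; each line is a called region, its height the number of libraries of the group calling it (1 to 3), and the x axis is the distance in kb from the right end of the gene body, whose arrows mark the 7 starts. The start regions near 0 are at full height in all 8 rows, and the left part of the gene body holds more full-height lines in the adult rows than in the E18.5 rows.

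Beside both start regions, 4 regions of the locus were called in all 24 libraries, 6 in all (3.75%, against 3.98% of kept regions genome-wide). They were chr7:115451945-115456441 in the left flank, chr7:115588775-115590117 and chr7:115817186-115819515 inside the gene body, and chr7:116092418-116094136 over 1110004F10Rik and 1700003G18Rik in the right flank. The region in the right flank was, like that of starts 1 and 2, covered over a shorter length in every adult than in any litter, at 919.5 ± 139 bp in adults and 1162 ± 116 bp at E18.5 (SD, n = 3 each). The other regions called throughout overlapped between adults and litters in covered length. Genome-wide, regions called in all libraries were also generally wider at E18.5, as given above. The share of them that separates adults from litters was not computed.

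Within the adult, slow-biased muscles had fewer called regions than fast-biased muscles, without overlap, and the difference did not pass the adjusted test. The counts were 34 to 46 in the 6 slow-biased libraries and 48 to 65 in the 6 fast-biased libraries. Slow-biased libraries averaged 40.5 ± 4.28 called regions and fast-biased ones 55.2 ± 6.55 (SD, n = 6 each), a difference of -14.7. The exact permutation p was 0.00216, the smallest that 6 against 6 gives, and the adjusted p over all gene loci was 0.123. Of all gene loci, 1.75% had fast-biased libraries all above slow-biased ones and 0.00291% had the opposite, while 19.4% had an unadjusted p under 0.05 with fast-biased higher. With labels exchanged only within animals (the replicate block), the exact p was 0.00926, the smallest possible, and the adjusted p 0.162.

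Slow minus fast was -18.5, -13.5 and -12 in adults 1, 2 and 3. In the gene body it was -14.5, -13 and -13.5, and in the flanks -4, -0.5 and 1.5. The mean list length was 176761 peaks in adult soleus and 130608 in adult vastus intermedius, against 171485 in adult gastrocnemius and 187519 in adult vastus lateralis, so the shorter slow-biased mean came from vastus intermedius. Per 100000 called regions of the library, slow-biased libraries had 35 ± 5.10 and fast-biased libraries 40.4 ± 4.99 (SD, n = 6 each), which overlapped (exact permutation p = 0.0931, adjusted p = 0.767). With the same number of peaks drawn from each list the difference was -3.67 (exact permutation p = 0.396), and with the first peaks of each file it was -3.50 (exact permutation p = 0.117). Without adult 1 it was -9.50 (exact permutation p = 0.0857), against -13.5 without adult 2 and -13.75 without adult 3.

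Of 21 regions with enough calls in the adult, 0 passed the adjusted Fisher test in either direction, as did 0 of 48133 genome-wide. At an unadjusted p under 0.05 there was 1 region called more often in slow-biased and 1 called more often in fast-biased muscles, where 0.472% and 2.88% of regions tested genome-wide were. The region called more often in fast-biased muscles, chr7:115807323-115808740, was called in 0 of 6 adult slow-biased, 6 of 6 adult fast-biased and 0 of 12 E18.5 libraries. Its peaks covered 1084, 544 and 368 bp in gastrocnemius and 400, 647 and 834 bp in vastus lateralis of adults 1, 2 and 3. Fisher's exact test gave p = 0.00216 and an adjusted p of 0.445. That test takes the 6 libraries of each side as independent, though they come from the same 3 animals. With labels exchanged only within animals, the exact permutation p was 0.00926 and the adjusted p 0.361. This call pattern, all adult fast-biased libraries and no other, was found in 50 of the 459616 kept regions (0.0109%). Being called in all adult fast-biased and no adult slow-biased libraries, whatever the E18.5 calls, was found in 0.047%. The region lies inside the gene body, 233 kb from the right end, and starts 5714 bp upstream of start 7, whose promoter window is printed above. It had calls in at least 50% of its length in fewer libraries, and the slow-minus-fast difference in the share of libraries calling it then shrank to -33.3 percentage points from -100.

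The region called more often in slow-biased muscles, chr7:115594976-115595959, had a call in 5 of 6 adult slow-biased libraries and 0 of 6 adult fast-biased ones (Fisher's exact test, p = 0.0152, adjusted p = 0.452). Exchanging labels only within animals gave an exact permutation p of 0.0278 and an adjusted p of 0.361. With calls required to cover at least 50% of the region the difference was 0. Its peaks covered 468, 399 and 393 bp in vastus intermedius of adults 1, 2 and 3 and 272 and 416 bp in soleus of adults 2 and 3. At E18.5, 2 of 6 slow-biased libraries and 2 of 6 fast-biased libraries called it. Further regions called more often in adult fast-biased libraries lay 66.9 to 534 kb from the right end. Regions chr7:115829470-115831477 and chr7:115973299-115974441 were each called in 1 slow-biased and 5 fast-biased adult libraries (Fisher's exact test, p = 0.0801, adjusted p = 0.939). A call in 0 slow-biased and 4 fast-biased adult libraries (Fisher's exact test, p = 0.0606) was found at chr7:115505908-115506651 and chr7:115547758-115548394, and at chr7:115747911-115748917 and chr7:115878294-115879195, which fell outside the naming rule only by the order of ties and were added after their values were seen. Region chr7:116124485-116126301 in Plekha7 was called in 4 slow-biased and 0 fast-biased adult libraries (Fisher's exact test, p = 0.0606). Regions with 4 adult calls were not in the adjusted test, as no smaller p was possible for them.

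At E18.5 the slow-biased and fast-biased muscles differed by less than their spread. Slow-biased libraries averaged 35.5 called regions and fast-biased ones 34.7, a difference of 0.833 (exact permutation p = 0.905, adjusted p = 1; with the replicate block, p = 0.880), and slow minus fast was -1, 9 and -5.5 in litters 1, 2 and 3. The slow-fast difference of the adult minus that of E18.5 was -15.5, with every adult below every litter (exact permutation p = 0.1, the smallest possible, adjusted p = 1). Of all gene loci, 5.96% were separated in this direction.

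Of 17 regions with enough calls at E18.5, 0 passed the adjusted test in either direction, and 0 in slow-biased and 1 in fast-biased muscles had an unadjusted p under 0.05, where 0.234% and 0.591% of regions tested genome-wide had. That region, chr7:115464646-115467473, lies in the left flank, 575 kb from the right end. At E18.5, 0 of 6 slow-biased libraries and 5 of 6 fast-biased ones called it (Fisher's exact test, p = 0.0152, adjusted p = 1), with 339 to 726 bp under peaks. Exchanging labels only within litters gave an exact permutation p of 0.0278. With calls required to cover at least 50% of the region the difference was 0. In adults, 5 of 6 slow-biased libraries and 6 of 6 fast-biased ones called it, with 255 to 1421 bp under peaks.

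**Figure D5:**
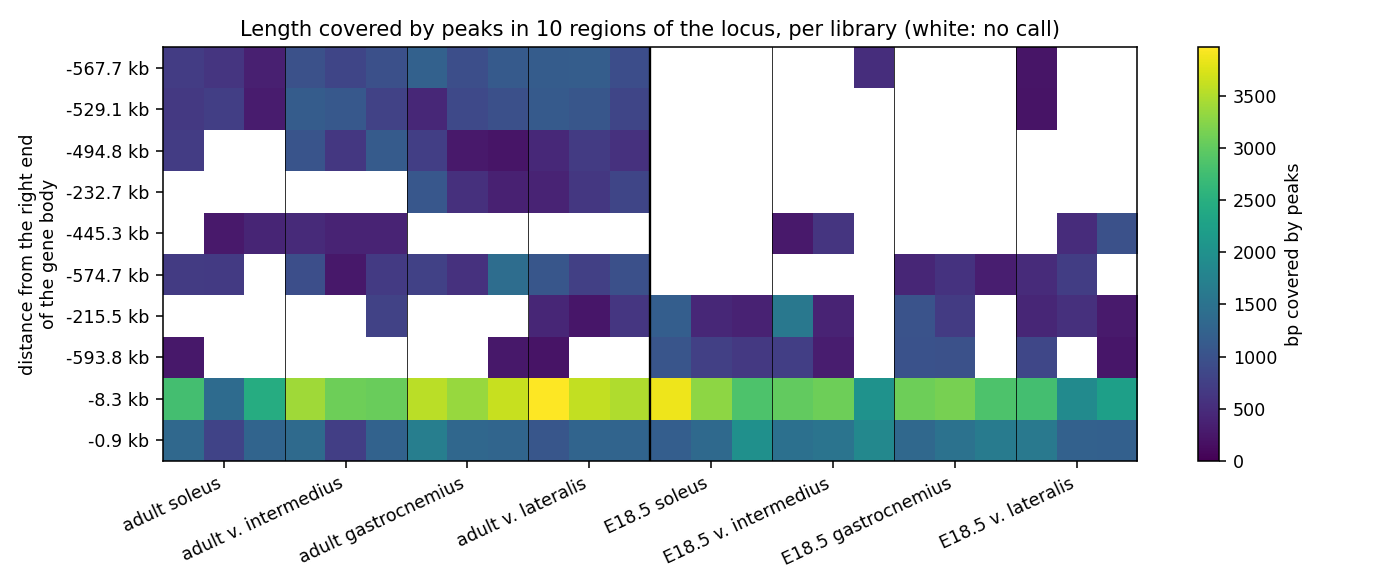
Length in bp covered by peaks in 10 regions of the Sox6 locus in each of the 24 libraries, grouped by stage and muscle (adult left of the thick line, E18.5 right), with white for no call; rows are named by their distance in kb from the right end of the gene body. The top 3 rows hold 12, 12 and 10 adult calls, the fourth row is filled in adult gastrocnemius and vastus lateralis alone, and the start regions in the last 2 rows are filled in all 24 libraries.

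How far libraries shared called regions of the Sox6 locus was measured with the Jaccard index. The mean index, the share of called regions in common, was 0.349 for adult libraries of different animals and the same bias, 0.302 for different bias, and 0.337 for muscles of the same animal. At E18.5 these were 0.349, 0.344 and 0.380, and across stages the index was 0.271. Over all kept regions the adult values were 0.341, 0.330 and 0.339, the E18.5 values 0.402, 0.402 and 0.425, and the value across stages 0.324.

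Among 18430 protein-coding loci with at least 20 kept regions, the counts most like those of Sox6 across the 24 libraries, scaled per 100000 called regions, were those of Mtus1 (Pearson r = 0.916), Crim1 (r = 0.889), Ppm1l (r = 0.888), Myh2 (r = 0.884) and Pura (r = 0.876). The median r over the loci compared was -0.0384, and 58 were above 0.8. These are descriptions over 24 libraries that share animals and depth, without a p. Myh2 encodes the myosin heavy chain of fast IIa fibres, and with 100 kb flanks its locus takes in neighbouring myosin genes. At the Myh2 locus the unscaled counts averaged 36.7 in adult vastus lateralis, 29.3 in adult gastrocnemius, 28.3 in adult vastus intermedius and 22.3 in adult soleus. At E18.5 they averaged 11, 14, 13.3 and 12.3 in the same order of muscles.

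The other SoxD genes, with 10 kb flanks, did not separate the stages. Sox5 averaged 34.1 ± 4.48 called regions in adults and 32.2 ± 7.15 at E18.5, and Sox13 10.6 ± 0.144 and 10.9 ± 2.60 (SD, n = 3 each), with overlap of adults and litters. Sox6 with the same flanks averaged 33.7 ± 1.42 in adults and 19.8 ± 4.26 at E18.5. Of 98 tested regions of the SoxD loci, 3 were called more often in adults by the adjusted test and 0 at E18.5, beside genome-wide shares of 1.55% and 4.55%. All 3 are the regions of the Sox6 gene body named above.

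The factors known to act with or on Sox6 gave 13 regions called more often in adults and 5 called more often at E18.5, of 101 regions tested (230 in all); genome-wide, 1.55% and 4.55% of tested regions were called more often in adults and at E18.5. Mef2c, a muscle activator, averaged 14.5 ± 2.29 called regions in adults and 6.83 ± 2.60 at E18.5, with 2 regions past the test, both in adults. Eya1, a partner of Six4 in the fast fibre program, averaged 10.9 ± 1.04 in adults and 4.75 ± 1.64 at E18.5, with 2 regions in adults and 1 at E18.5. Tbx15, a factor of glycolytic fibres, had 3 and Nfix, a factor of fetal muscle, 4, all in adults, and Eya4 had 1 in adults and 4 at E18.5. Six4 had 1 in adults, while Myod1 and Myh7b had 0. Every adult was above every litter at 5 of these 8 loci, and below at 0, where 5.19% and 13.9% of all gene loci with 10 kb flanks were above and below. This list, like the other gene lists here, was chosen with earlier results of these data known, so its counts are a description only.

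The slow-fibre genes described as targets of Sox6 gave 4 regions called more often in adults and 5 called more often at E18.5, of 134 regions tested (304 in all), beside the same genome-wide shares of 1.55% and 4.55%. Tead1 had 2 in adults and 3 at E18.5, Casq2 had 2 at E18.5, and Tnni1 and Myl2 had 1 each in adults. At none of these 11 loci were adults and litters separated. In the adult, the mean over slow-biased libraries was above that over fast-biased ones at 5 of the 11 loci, below it at 5 and equal at 1, where 22.8% of all gene loci were above and 66.3% below. The Atp2a2 locus (the slow fibre calcium pump) averaged 11.8 ± 2.04 called regions across slow-biased libraries and 6.83 ± 1.72 across fast-biased ones, and the Tead1 locus 41.3 and 45.8. The Myh7 locus (slow myosin) averaged 10.2 ± 2.48 and 7 ± 4.38 (SD, n = 6 each). No region of these lists passed the adjusted test between slow-biased and fast-biased muscles.

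Of the cell type marker lists, the sums for skeletal muscle did not overlap between stages and the other sums did. The 6 skeletal muscle markers summed to 67 to 108 called regions in adult libraries and 29 to 56 at E18.5. Nearly all of this gap came from Ttn (67.5 ± 5.88 in adults, 13.0 ± 2.14 at E18.5, SD, n = 3 each). Means were higher in adults at Des (5.5 in adults, 4.25 at E18.5) and Mb (10 and 9.58). They were lower in adults at Ckm (5.42 and 6.33), Acta1 (2.92 and 3) and Myod1 (2.92 and 3.08). Fibroblast markers summed to 17 to 35 in adults and 26 to 49 at E18.5, with 0 regions called more often in adults and 6 called more often at E18.5 by the adjusted test. Every adult was below every litter at 3 of these 6 genes: Col1a1 (6 ± 0.5 in adults, 7.75 ± 0.25 at E18.5), Col1a2 (2.42 ± 1.13 and 7.58 ± 1.63) and Col3a1 (3.58 ± 1.04 and 9.58 ± 1.04; SD, n = 3 each). Cartilage markers, of interest as Sox6 acts there, summed to 13 to 38 in adults and 20 to 47 at E18.5. Erythroid markers summed to 10 to 17 in adults and 13 to 24 at E18.5, and Gata1 and Alas2 had no called region. Endothelial markers summed to 42 to 56 and 35 to 72, Schwann and neural markers to 21 to 45 and 24 to 60, and immune markers to 13 to 32 and 20 to 42. Of the 6 genes in each list, 6 skeletal muscle, 5 endothelial, 4 cartilage, 4 Schwann and neural, 4 immune, 3 erythroid and 2 fibroblast markers were called in every library. In the adult the skeletal muscle markers summed to 67 to 100 in slow-biased and 97 to 108 in fast-biased libraries. The part of cell makeup in the Sox6 counts was not tested.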

How the data were processed

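The authors deposited 1 ATAC-seq peak list per library, giving the position of each peak on mm10 with no score, count or signal. MACS2 2.1.1, bedtools 2.25.0, Bowtie2 2.4.4, Picard, Trimmomatic 0.39.0, FastQC 0.11.5 and SAMtools 1.14.0 were used, per the submitters' processing notes. The sources used here give neither thresholds nor any shift of reads for Tn5. Peaks were called per library, and 0 pairs of lists were identical.

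Peaks on chromosomes 1 to 19, X and Y were merged (touching peaks included) into 930761 regions with Python 3.11.15 and numpy 2.4.6, of which 471145 were called in 1 library. An overlap of at least 1 bp between a peak and a region counted as a call. Gene positions came from RefSeq for GRCm38.p6, without strand or exons; the strand and starts of Sox6 came from its promoter windows. Introns, exons and UTRs were not told apart. Fisher's exact test compared calls per region. Counts per locus were compared by exact permutation (scipy 1.17.1) of animals or libraries, run over all gene loci with regions. Adjustment was by Benjamini-Hochberg with a threshold of 0.05. Replicate numbers pair muscles of the same animal or litter, per the labels, so fits with that block were also made. The tests were checked on simulated calls. Libraries were drawn independently there, so the check does not cover libraries that share an animal or litter.

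Regions named are those over a start, called in all libraries, called in whole groups alone, or past the test, filled up to 5 per direction by the difference in calls. The locus, the gene lists and these rules were chosen with earlier results of these data known. A gene of the list of factors acting with or on Sox6 is not reported here and is left out of its counts. Alternatives were other flanks, at least 3 libraries, calls covering at least 50% of a region, merging within 100 bp, scaling by called regions, equal numbers of peaks, leaving out each animal or litter and, chosen after seeing the data, the first 57666 peaks of each file. That choice followed from peaks being wider at the start than at the end of 24 of 24 files.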

Additional observations from a re-analysis of the deposited data

How the results depend on the processing

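The 3 regions called more often in adults became 5 with calls covering at least 50% of the region, 0 when each list was shortened to equal length at random and 6 with the first 57666 peaks of each file (chosen after seeing the data), and 3 to 4 when an animal or litter was left out. The 0 regions called more often at E18.5 became 1 with 50% cover and 3 with the first peaks, and the cause was not tested. The 3 named regions kept their direction under all 11 alternatives, and each passed the threshold in 10.

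The adult against E18.5 difference kept its direction under 14 alternatives, at 6.08 to 16.5, and at 8.83 to 16.5 when an animal or litter was left out. With regions called in at least 3 libraries, adults and litters were no longer fully separated (exact permutation p = 0.2). The adult slow-biased against fast-biased difference kept its direction under 15, at -15.2 to -3.50, and at -14.8 to -9.50 with 1 left out. The difference of the 2 stages in slow minus fast kept its direction under 14, at -18.1 to -3.17. None of these passed an adjusted p of 0.05 in any alternative. The E18.5 slow-fast difference of 0.833 turned to -0.333 with the first peaks, to -0.333 without adult 3 (which changes the kept regions) and to -3.25 without litter 2, with a range of -3.25 to 3.25 over the left-out animals and litters. At E18.5, region chr7:116124485-116126301 turned to -16.7 percentage points with 50% cover, and with the first peaks chr7:115509176-115510664 turned to -16.7 and chr7:115669092-115671905 to 16.7. The replicate block (same animal or litter) gave an exact p of 0.00926 for the adult slow-fast difference and 0.880 at E18.5, and changed no call. Depth is unknown, so a missed call may be a shallow library, and 3 animals against 3 litters cannot give a p below 0.1.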
